A study of Mus musculus with 24 samples.

Results

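The 9 genes described here encode the mitogen-activated protein (MAP) kinases ERK1 (Mapk3), JNK1 (Mapk8) and p38α (Mapk14), the upstream kinase TPL2 (Map3k8), the downstream kinase MK2 (Mapkapk2), and the dual-specificity phosphatases Dusp2, Dusp4, Dusp6 and Dusp16. They were taken by symbol, and all 9 were found among the 54658 gene symbols of both count tables. Gene expression was measured by RNA-seq in C57BL/6 male mice of 7 to 12 weeks with experimental peritonitis, which received intraperitoneal β-nicotinamide mononucleotide (β-NMN, a precursor of NAD+) at 185 mg/kg or vehicle (saline with 0.9% NaCl). Hearts and lungs were both collected from each of 3 vehicle and 3 β-NMN mice, 24 h after cecal ligation and puncture (CLP, which lets gut bacteria into the abdomen). The CLP mice had then received a single dose, right after surgery. Peritoneal cells came from 6 vehicle and 6 β-NMN mice given 1 mL of thioglycollate medium (TGC, a sterile irritant that draws leukocytes into the peritoneum), and all of them were plated and exposed to E. coli for 6 h, at 15 bacteria per cell. The TGC mice were dosed once a day for 3 days, the first time together with the TGC. All animals therefore had peritonitis and all peritoneal cells had met bacteria, so the comparison in each sample type is β-NMN against vehicle.

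MAP kinases form cascades in which a MAP3 kinase phosphorylates a MAP2 kinase, which in turn phosphorylates ERK, JNK or p38. In macrophages, bacterial products sensed by Toll-like receptors switch on all of these branches, with TPL2 as the MAP3 kinase that leads to ERK, and MK2 as the kinase below p38 that acts on RNA-binding proteins controlling cytokine mRNA. Dual-specificity phosphatases remove the activating phosphates from the threonine and tyrosine of MAP kinases, and many of their genes are themselves switched on by MAP kinase signaling, which makes them feedback brakes. The values below are transcript levels, and phosphorylation was not measured in these libraries.

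The total counts per library ranged from 31126823 to 112456050 in peritoneal cells, from 27319513 to 68523239 in hearts and from 8915366 to 28356786 in lungs. The heart and the lung of vehicle mouse 2 stood apart from the other libraries of their organ, and its lung had the lowest total. The standard deviation of the log2 differences from the other libraries was 0.99 for that heart against at most 0.577 for the rest, and 1.571 for that lung against at most 0.602. The log2 fold changes of the 9 genes in the organs are therefore given with and without them, whereas levels per length and shares in the organs include them unless stated. Macrophage markers were present in the peritoneal cells, cardiomyocyte markers in the hearts and alveolar markers in the lungs. In each sample type, the treatments were compared with edgeR's quasi-likelihood test, with p-values adjusted by the Benjamini-Hochberg method over all genes tested, and "called" means an adjusted p below 0.05. Levels are in CPM, read counts per M counts of the TMM-scaled library size, set within each sample type, and fold changes are β-NMN over vehicle on the log2 scale with their standard error (SE).

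In peritoneal cells, all 9 genes were called and the treatments did not overlap at any of them. The transcripts of ERK1 and p38α rose with β-NMN, whereas those of JNK1, TPL2, MK2 and the 4 phosphatases fell. The largest fall was that of Dusp2, which was 4.77-fold lower, and the largest rise was that of Mapk14, which was 1.91-fold higher. The whole transcriptome moved in these cells: of 14985 genes tested, 7733 (51.6%) were called, 3546 (23.7%) higher and 4187 (27.9%) lower. Without overlap between the treatments were 26.6% of the genes tested, and 14% of them were lower in that way. The median log2 fold change was -0.92 over the 9 genes, 2 higher and 7 lower, and -0.02 over all genes tested. The plot of levels by library shows each mouse in the 3 sample types.

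**Figure D1:**
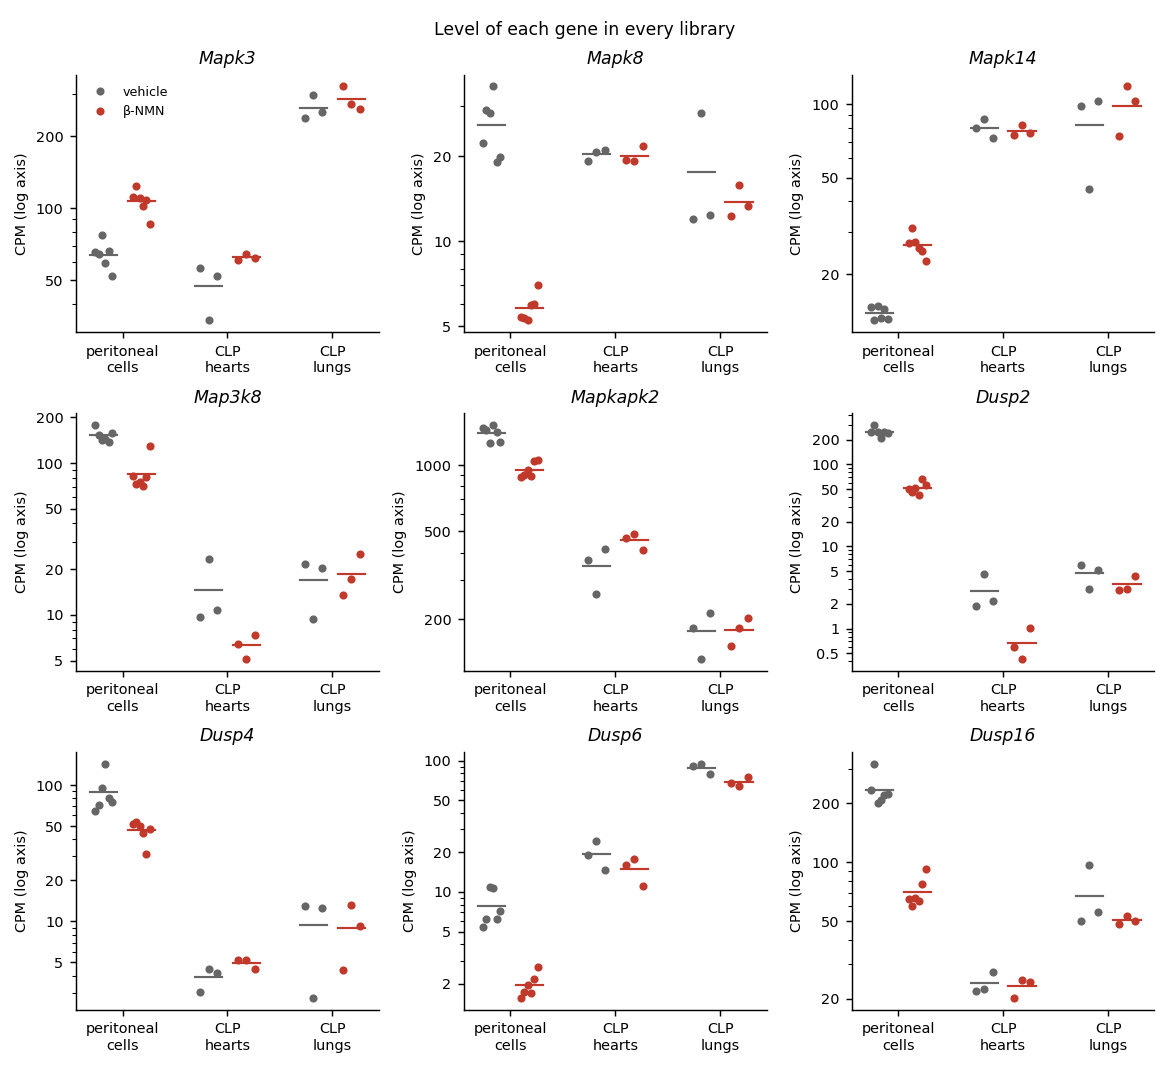
Level of each of the 9 genes in every library, in CPM on a log axis whose range differs between panels, with vehicle in gray and β-NMN in red; points are mice and bars are group means (6 mice a group for peritoneal cells, 3 for hearts and for lungs). CPM were scaled within each sample type, so heights should be compared between treatments and not between peritoneal cells and organs. In peritoneal cells the treatments do not overlap for any gene, and Dusp2 sits at 207 to 300.2 CPM with vehicle and at 42.7 to 65.7 CPM with β-NMN.

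Several of the cell type marker lists differed between the treatments in the same peritoneal libraries. The summed level of the 8 macrophage markers ranged from 5643 to 8602 CPM with vehicle and from 10584 to 12175 CPM with β-NMN. The 8 neutrophil markers summed to 108 to 309.8 CPM with vehicle and to 20.1 to 51.5 CPM with β-NMN. The 4 fibroblast markers summed to 89.6 to 956 CPM with vehicle and to 19.8 to 85.7 CPM with β-NMN, and the 3 dendritic cell markers to 31.3 to 51.3 CPM and 11.3 to 17.1 CPM. The 3 erythroid markers (genes of hemoglobin and heme synthesis) summed to 2.69 to 33.1 CPM with vehicle and to 44.6 to 114 CPM with β-NMN, without overlap, and the 3 alveolar type 1 markers, which were low in these cells, to 6.19 to 13 CPM and 15.2 to 17.1 CPM. The 4 markers of resident peritoneal macrophages were low in both groups, at 14.5 to 21.4 CPM and 20.2 to 63.1 CPM. No gene of these lists was at 0 in all libraries of a treatment. The part of these shifts in the results on the 9 genes was not tested, and in bulk RNA a smaller number of cells of a type cannot be told apart from less transcript per cell.

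Among the MAP kinases themselves, the transcripts went in opposite directions. Mapk3 (chromosome 7, 126759601 to 126765819 on GRCm38, plus strand), which encodes ERK1, had its lowest, median and highest CPM at 52, 64.9 and 77.2 with vehicle and at 86.1, 110 and 124 with β-NMN. It rose by 0.74 on the log2 scale (SE 0.104, adjusted p = 3.74e-05). Mapk14 (chromosome 17, 28691329 to 28748406, plus strand), which encodes p38α, had 13, 13.8 and 14.8 CPM with vehicle and 22.6, 26.3 and 31.1 CPM with β-NMN. Every β-NMN mouse was above every vehicle mouse for both genes. Mapk14 rose by 0.93 (SE 0.0876, adjusted p = 9.87e-07). Mapk8 (chromosome 14, 33377898 to 33447158, minus strand), which encodes JNK1, had 19.1, 25.3 and 35.3 CPM with vehicle and 5.26, 5.67 and 7.03 CPM with β-NMN. It fell by 2.14 on the log2 scale (SE 0.153, adjusted p = 8.29e-08), a 4.41-fold decrease, and the vehicle mice were more spread out than the β-NMN mice.

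The other JNK and p38 genes that were tested changed less than these, apart from Mapk13. Mapk9, which encodes JNK2, was not called, with 39.5 ± 5.49 CPM with vehicle and 45.6 ± 3.4 CPM with β-NMN (log2 fold change 0.21, adjusted p = 0.0916). Of the other p38 genes, Mapk11 (p38β) rose by 0.40 (adjusted p = 0.0145), Mapk12 (p38γ) was not called (log2 fold change -0.51, adjusted p = 0.246) and Mapk13 (p38δ) fell by 2.62 (adjusted p = 6.75e-06), from a low level of 1.95 to 0.323 CPM. The difference between the responses of Mapk8 and Mapk9 was not tested.

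The make-up of the JNK and p38 transcripts was also described per length, in TPM (reads divided by the summed exon length of the gene and scaled to the same total in each library), which allows genes to be set beside each other. The 7 JNK and p38 genes summed to 44.9 ± 1.98 TPM with vehicle and to 50.9 ± 4.1 TPM with β-NMN (SD, n = 6 and 6), with overlapping ranges of 41.9 to 47 TPM and 45.5 to 55.7 TPM. Mapk8 made up 16.2% ± 4.55 of this sum with vehicle and 3.18% ± 0.417 with β-NMN, and Mapk14 22.7% ± 1.48 and 37.6% ± 4.28. The share of Mapk9 was 41.6% ± 4.43 and 41.8% ± 3.08. The 3 JNK genes held 55.3% to 59.7% of the sum in vehicle mice and 40.1% to 50.8% in β-NMN mice, without overlap. These shares sum to a fixed total, so they are not independent of each other. Mapk8 itself was at 7.26 ± 2.1 TPM with vehicle and at 1.6 ± 0.111 TPM with β-NMN.

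**Figure D2:**
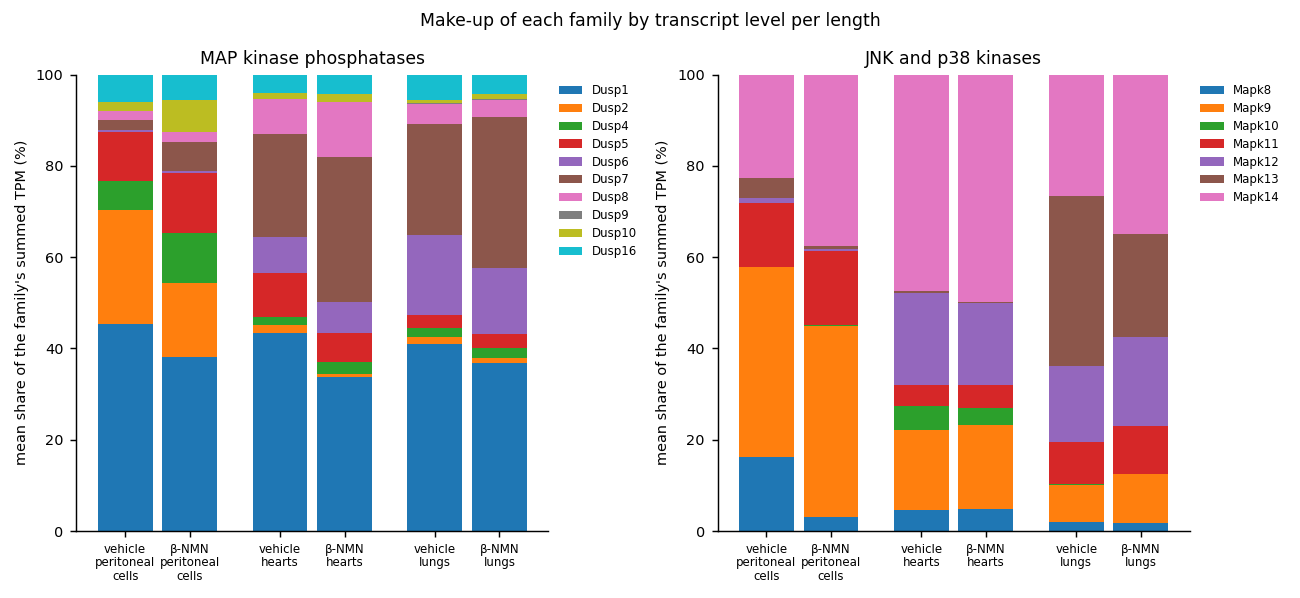
Make-up of the MAP kinase phosphatase genes (left) and of the JNK and p38 genes (right), as the mean share of each gene in its family's summed TPM, in percent; bars are means over 6 mice (peritoneal cells) or 3 mice (hearts, lungs). In peritoneal cells the share of Dusp2 is 25% with vehicle and 16.3% with β-NMN, and that of Mapk8 is 16.2% and 3.18%, while Dusp7 and Mapk14 take larger shares in the hearts than in the peritoneal cells.

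Upstream and downstream of the MAP kinases, both kinase genes fell. Map3k8 (chromosome 18, 4331327 to 4353015, minus strand), which encodes TPL2, had its lowest, median and highest CPM at 137, 149 and 178 with vehicle and at 70.5, 77.7 and 129 with β-NMN. The β-NMN mouse at 129 CPM, replicate 6, lay close to the lowest vehicle mouse, whereas the other β-NMN mice did not exceed 82.6 CPM. The same mouse was also the β-NMN mouse nearest to vehicle at other genes. It was highest of its group for Dusp16, Dusp6, Mapk8 and Mapkapk2 and lowest for Mapk3 and Mapk14, but neither for Dusp2 and Dusp4. Map3k8 fell by 0.84 on the log2 scale (SE 0.137, adjusted p = 0.000148). Mapkapk2 (chromosome 1, 131053700 to 131097826, minus strand), which encodes MK2, had 1266, 1428 and 1520 CPM with vehicle and 881, 925 and 1053 CPM with β-NMN. It fell by 0.55 (SE 0.086, adjusted p = 9.72e-05), the smallest change of the 9, at the gene with the highest level.

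The partners of these kinases were split. TPL2 is held in a complex with the NF-κB1 precursor p105 and ABIN-2, encoded by Nfkb1 and Tnip2. Nfkb1 fell from 959 ± 79 to 557 ± 113 CPM (log2 fold change -0.78, adjusted p = 7.42e-05), and Tnip2 rose (log2 fold change 0.43, adjusted p = 0.0302). Among the substrates of MK2, Zfp36 (tristetraprolin, which destabilizes cytokine mRNA) fell by 0.69 (adjusted p = 0.00653) with overlapping groups, at 2048 to 3705 CPM with vehicle and 1341 to 3029 CPM with β-NMN. The overlap came from β-NMN replicate 6, at 3029 CPM, and the other β-NMN mice did not exceed 1894 CPM. The relatives of Zfp36 moved in opposite ways: Zfp36l1 fell by 1.99 (adjusted p = 6.57e-07) and Zfp36l2 rose by 1.05 (adjusted p = 3.21e-05). Hnrnpa0, a further RNA-binding substrate, fell by 0.69 (adjusted p = 2.94e-05), whereas Hspb1, a small heat shock protein, rose by 0.72 (adjusted p = 0.00303) and Ripk1, a kinase of TNF signaling, was not called (log2 fold change 0.11, adjusted p = 0.493). Of the 6 MK2 substrates tested, 2 rose, 3 fell and 1 was not called, beside 23.7% higher and 27.9% lower over all genes tested, and Hspb1 and Ripk1 were named after their values were seen. Mapkapk3, the close relative of Mapkapk2, was not called (log2 fold change -0.19, adjusted p = 0.163).

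Of the 4 phosphatases, Dusp2 changed most. Dusp2 (chromosome 2, 127336159 to 127338376, plus strand) encodes PAC-1, a nuclear phosphatase of immune cells. Its lowest, median and highest CPM were 207, 247 and 300.2 with vehicle and 42.7, 51.2 and 65.7 with β-NMN, so that the highest β-NMN mouse was far below the lowest vehicle mouse. The log2 fold change was -2.25 (SE 0.115, adjusted p = 5.76e-09), and by p it was in place 12 of the 14985 genes. Dusp16 (chromosome 6, 134715468 to 134792625, minus strand), which encodes MKP-7, a phosphatase of JNK and p38, had 200.3, 223 and 318 CPM with vehicle and 60, 65.5 and 92.1 CPM with β-NMN. It fell by 1.73 (SE 0.132, adjusted p = 1.51e-07), and the vehicle mouse at 318 CPM, replicate 2, was apart from the other vehicle mice.

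Dusp6 and Dusp4 fell as well. Dusp6 (chromosome 10, 99263231 to 99267489, plus strand) encodes MKP-3, a cytoplasmic phosphatase selective for ERK. It was the gene with the lowest CPM after β-NMN, with 5.39, 6.73 and 10.9 CPM with vehicle and 1.56, 1.85 and 2.68 CPM with β-NMN, from 158 to 1179 reads and from 74 to 158 reads per library. It fell by 1.99 (SE 0.203, adjusted p = 2.07e-06). Dusp4 (chromosome 8, 34807297 to 34819894, plus strand), which encodes the nuclear MKP-2, a phosphatase of ERK, JNK and p38, had 65, 77.5 and 143 CPM with vehicle and 31.5, 49.1 and 53.5 CPM with β-NMN. Its log2 fold change was -0.92 (SE 0.18, adjusted p = 0.00064), the largest adjusted p of the 9, with vehicle replicate 4 well above the rest and β-NMN replicate 5 below the rest.

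The sequences before the starts of Dusp2 and Mapk14, the genes with the largest fall and the largest rise, are shown because their transcripts moved in opposite directions. Both are the 250 bases upstream of the RefSeq start on GRCm38.p6, 5′ to 3′ on the plus strand, with capitals at the matches to the motifs searched.
Dusp2, chr2:127335909-127336158: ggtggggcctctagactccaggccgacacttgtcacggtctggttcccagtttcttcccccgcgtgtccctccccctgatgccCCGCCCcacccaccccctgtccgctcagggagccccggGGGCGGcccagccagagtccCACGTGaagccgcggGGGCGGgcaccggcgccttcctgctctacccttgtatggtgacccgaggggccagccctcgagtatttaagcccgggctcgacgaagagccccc
Mapk14, chr17:28691092-28691341: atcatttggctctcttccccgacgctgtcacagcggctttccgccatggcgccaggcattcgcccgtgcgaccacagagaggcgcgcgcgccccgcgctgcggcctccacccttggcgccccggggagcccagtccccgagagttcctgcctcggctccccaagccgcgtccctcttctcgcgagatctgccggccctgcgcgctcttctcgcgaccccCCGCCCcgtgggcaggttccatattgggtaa

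The motifs, searched on both strands, were the cyclic AMP response element (TGACGTCA), the AP-1 site (TGANTCA), the GC box (GGGCGG), the TATA box (TATAAA) and the E-box (CACGTG). No matches overlapped in these windows. The window of Dusp2 held 3 GC boxes, which began 167, 129 and 94 bases before the start, and an E-box that began 109 bases before it. The window of Mapk14 held 1 GC box, 31 bases before the start. Mapk14 has 2 start sites in the table, of which the first listed is shown, and the window of the other held none of the motifs. Of 32851 mouse windows of this length, 32.74% held a GC box, 6.02% an E-box, 12.37% a TATA box, 6.75% an AP-1 site and 1.55% a cyclic AMP response element. Windows were found for 6 of the 9 genes, and neither the cyclic AMP response element nor the AP-1 site was among their letters. A match is only a match of letters, and its absence says nothing of binding.

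The MAP kinase phosphatase family has 10 genes, of which 9 were tested in peritoneal cells, the 4 described above included, and 7 fell, none rose and 2 were not called, with a median log2 fold change of -1.46. Of the 5 tested besides those 4, 3 fell, with a median of -1.34, beside 27.9% lower over all genes tested. Dusp1 (MKP-1), the most abundant of them, fell from 746 ± 55.6 to 204 ± 45.6 CPM (log2 fold change -1.87, adjusted p = 8.23e-08). Dusp5, a nuclear ERK phosphatase, fell by 1.34 (adjusted p = 1.5e-07), and Dusp8, directed at JNK and p38, fell by 1.46 (adjusted p = 0.000271). Dusp7 (log2 fold change -0.10, adjusted p = 0.536) and Dusp10 (0.22, adjusted p = 0.341) were not called, and Dusp9 did not pass the filter on low counts. Per length, the family summed to 1601 ± 124 TPM with vehicle and 505 ± 60.9 TPM with β-NMN (SD, n = 6 and 6), with ranges of 1437 to 1809 TPM and 397 to 563 TPM that did not overlap. Dusp2 held 25% ± 2.93 of this sum with vehicle and 16.3% ± 1.31 with β-NMN, whereas Dusp10 held 1.9% ± 0.619 and 6.87% ± 0.598, and Dusp16 6.05% ± 1.05 and 5.65% ± 0.471.

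Over 11 lists of the wider pathway, 113 genes in all with the 9 included, 112 were in the tables and 98 were tested in peritoneal cells. Of these, 16 rose, 39 fell and 43 were not called, with a median log2 fold change of -0.22. Without the 9 genes, 14 of 89 rose and 32 fell, beside 23.7% higher and 27.9% lower over all genes tested. The plot of fold changes by list shows that the lists differed in spread and in median.

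**Figure D3:**
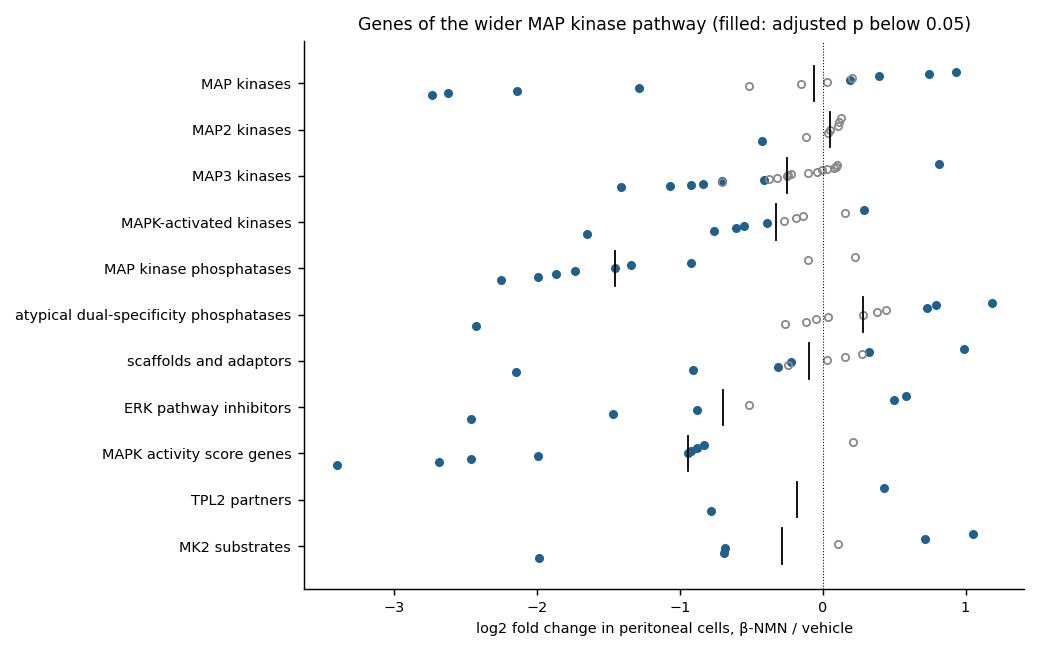
Log2 fold change (β-NMN over vehicle) in peritoneal cells of every tested gene of the 11 lists, filled where the adjusted p was below 0.05 and open otherwise; black bars are list medians, and a gene can stand in more than 1 list. The MAP kinase phosphatases have their median at -1.46 and the MAP2 kinases at 0.05.

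The counts of the lists that follow stand beside 51.6% called, 23.7% higher and 27.9% lower over all genes tested. Of the 7 MAP2 kinases Map2k1 to Map2k7, all tested, only Map2k3, an activator of p38, was called, and it fell by 0.42 (adjusted p = 0.00192). Of 20 MAP3 kinases tested, Map3k8 included, 1 rose, 6 fell and 13 were not called, so that the share that fell was near that of all genes. The called genes with the smallest p were Map3k14 (NIK, of the non-canonical NF-κB pathway; log2 fold change -1.41, adjusted p = 1.3e-06), Map3k11 (-0.92, adjusted p = 1.98e-06) and Map3k5 (ASK1; -1.07, adjusted p = 2.32e-05). Of the 10 MAPK-activated kinases tested, Mapkapk2 included, 1 rose and 5 fell, among them Mknk2, which acts on the translation factor eIF4E, by 1.65 (adjusted p = 5.55e-08), and Rps6ka4 (MSK2) by 0.61 (adjusted p = 0.000313).

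Genes of a published MAPK activity score and inhibitors of the ERK branch were counted next, again beside 23.7% higher and 27.9% lower over all genes tested. Of the 9 tested genes of this score, 8 fell and none rose, with a median log2 fold change of -0.94, and Dusp4 and Dusp6 are among them. Without Dusp4 and Dusp6, 6 of 7 fell. The treatments did not overlap at 4 of the 9, all lower, beside 14% of all genes tested. The activity of ERK itself was not measured. Epha4, a receptor tyrosine kinase, fell by 3.40 (adjusted p = 1.02e-06). The Sprouty and Spred genes encode inhibitors of ERK activation, and 2 of the 6 tested rose while 3 fell. Spred2 fell by 1.47 (adjusted p = 1.03e-06) and Spry4, which is also in the activity score, by 2.46 (adjusted p = 3.17e-05), whereas Spred1 rose by 0.58 (adjusted p = 0.00248). Among the atypical dual-specificity phosphatases, most of which are not dedicated to MAP kinases, 3 of 11 rose, a share near that of all genes, and 1 fell. Dusp14 fell by 2.43 (adjusted p = 6.72e-08), Dusp23 rose by 1.18 (adjusted p = 9.48e-07) and Dusp22 rose by 0.79 (adjusted p = 6.83e-05). Of 10 scaffolds and adaptors, 2 rose and 4 fell, with Mapk8ip3 (JIP3) up by 0.99 (adjusted p = 2.54e-05), Ksr1 down by 0.91 (adjusted p = 0.00249) and Mapk8ip1 (JIP1) down by 2.15 (adjusted p = 0.00258).

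The peritoneal calls were repeated within libraries of like depth, a split chosen after the data were seen. With libraries of over 80 M counts alone (3 vehicle and 2 β-NMN), 8 of the 9 were called, and Dusp4 was not (log2 fold change -0.84, adjusted p = 0.052). That fit called 5717 of the 18730 genes tested. With libraries of under 60 M counts alone (3 vehicle and 4 β-NMN), all 9 were called, beside 4244 of the 15198 genes tested. An exact two-sided permutation test of mean log2 CPM gave p = 0.00216 for each of the 9, which is the smallest p that 6 mice against 6 can give. Groups without overlap give this p whatever the size of the change, so it adds nothing to their separation. Of all genes tested, 26.6% were without overlap.

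For each of the 9 genes, the genes with the most similar profile over the 12 peritoneal libraries were found by Pearson's r of log2 CPM among the 9638 tested genes that averaged 1 or more in log2 CPM. All 12 libraries share the treatment contrast, so any gene with a clear change has a high r, and the r within vehicle and within β-NMN (n = 6 each) is given beside it. The neighbors were picked over these same libraries, so the r within a treatment is not an independent check. A mouse apart from its group also weighs on it, such as β-NMN replicate 6 for Map3k8 and vehicle replicate 2 for Dusp16. How far these r rest on such mice was not tested. Dusp16 was closest to Rasgrp1 (r = 0.998; 0.997 within vehicle and 0.925 within β-NMN), which encodes an activator of Ras. Dusp2 was closest to Smox (r = 0.996; 0.551 and 0.991) and to the neutrophil marker S100a8 (r = 0.989; 0.453 and 0.901). Mapk14 was closest to Abca9 (r = 0.997; 0.941 and 0.943), and Mapk8 to Osgin2 (r = 0.994; 0.935 and 0.841) and to Nfe2l2 (r = 0.993; 0.845 and 0.914), the gene of the oxidative stress factor NRF2. Map3k8 was closest to Irf9 (r = 0.989; 0.881 and 0.97) and Birc3 (r = 0.981; 0.732 and 0.978), which serve interferon and TNF signaling.

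The remaining 4 genes had these neighbors. Mapk3 was closest to Ctsd (r = 0.987; 0.901 and 0.951), the gene of the lysosomal protease cathepsin D, and to Gltp (r = 0.986; 0.902 and 0.983). Mapkapk2 was closest to Jarid2 (r = 0.982; 0.85 and 0.912) and Wwp2 (r = 0.981; 0.946 and 0.715). Dusp6 was closest to Cdkn2aip (r = 0.988; 0.863 and 0.924) and Herpud1 (r = 0.986; 0.895 and 0.764). Dusp4 was closest to Sfn (r = 0.977; 0.979 and 0.872) and Tmem120b (r = 0.97; 0.977 and 0.816). The second genes for Dusp16 and Mapk14 were B230303A05Rik (r = 0.994; 0.876 and 0.988) and Syngr1 (r = 0.99; 0.864 and 0.884).

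Within the vehicle peritoneal cells, Mapkapk2 had the highest level per length of the 9 genes at 1483 ± 167 TPM (SD, n = 6), followed by Dusp2 at 398 ± 39.7 TPM, and neither overlapped with the next gene. Map3k8 (108 ± 8.02 TPM), Dusp4 (105 ± 41.3 TPM), Dusp16 (96.6 ± 16.6 TPM) and Mapk3 (91.1 ± 10.1 TPM) came next, and each overlapped with its neighbor in this order. Mapk14 (10.2 ± 0.659 TPM), Dusp6 (8.07 ± 2.8 TPM) and Mapk8 (7.26 ± 2.1 TPM) were lowest and overlapped too. With the longest transcript as the length in place of all exons, 3 of the 9 genes kept their place in this order. With β-NMN, Mapk3 came after Mapkapk2 at 151 ± 23 TPM and did not overlap with Dusp2, which followed at 82.3 ± 13.7 TPM. The lowest places were again those of Dusp6 (1.98 ± 0.36 TPM) and Mapk8 (1.6 ± 0.111 TPM), whose ranges overlapped.

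In the hearts, 0 of the 9 genes were called by edgeR, as were 0 of the 16245 genes tested (0%). At an unadjusted p below 0.05 were 1837 genes (11.3%), among them Dusp2 and Map3k8. DESeq2 called 283 of 14328 genes (1.98%), 1 of them Dusp2 (log2 fold change -2.09, adjusted p = 0.00912), and limma-voom with quality weights called 3 genes (0.0185%), with 0 of the 9. The treatments did not overlap at 4 of the 9 genes, Map3k8 and Dusp2 (lower with β-NMN) and Mapk3 and Dusp4 (higher), beside 23.1% of all genes tested, and 11.5% that were lower. The median log2 fold change was -0.04 over the 9 genes and -0.01 over all genes.

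Dusp2 was scarce in the hearts. It had 1.89, 4.67 and 2.15 CPM in vehicle mice 1 to 3 and 0.596, 0.425 and 1.01 CPM in β-NMN mice 1 to 3, from 74 to 248 reads and from 16 to 65 reads. The groups did not overlap, and vehicle mouse 2 was highest. It had a log2 fold change of -2.09 (SE 0.491, adjusted p = 0.435 by edgeR), and of -1.57 without vehicle mouse 2 (adjusted p = 0.24). Map3k8 had 9.66, 23.5 and 10.8 CPM in vehicle mice and 6.48, 5.12 and 7.43 CPM in β-NMN mice. Its groups did not overlap either, with vehicle mouse 2 again far above the rest. Its log2 fold change was -1.21 (SE 0.364, adjusted p = 0.435 by edgeR), and -0.69 without vehicle mouse 2 (adjusted p = 0.251).

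Neutrophil markers were also lower with β-NMN in these hearts. The 8 neutrophil markers summed to 17.9, 21.4 and 35.9 CPM in vehicle mice 1 to 3 and to 12.2, 12.3 and 14.4 CPM in β-NMN mice, without overlap, while the 8 macrophage markers overlapped, at 223 to 391 CPM and 274 to 474 CPM, as did the 3 dendritic cell markers, at 11.9 to 18.8 CPM and 18.6 to 21.6 CPM. The 2 platelet markers were lower without overlap, at 7.6 to 20.6 CPM and 4.25 to 7.28 CPM, and the 4 endothelial markers higher without overlap, at 758 to 781 CPM and 796 to 955 CPM. The 5 cardiomyocyte markers were higher with β-NMN without overlap, at 29611 to 46115 CPM with vehicle and 48052 to 52362 CPM with β-NMN, and the 3 mesothelial markers lower without overlap, at 9.67 to 89.9 CPM and 5.51 to 9.48 CPM. The heart of vehicle mouse 2 had the lowest cardiomyocyte and the highest mesothelial sum. The 3 alveolar type 2 markers, low in hearts, were at 30.4 to 33.6 CPM and 24.6 to 29.5 CPM. No neutrophil or mesothelial marker was at 0 in all hearts of a treatment. The part of these markers in the values of the 9 genes in hearts was not tested.

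The kinases ERK1 and MK2 had higher means with β-NMN in the hearts, without a call. Mapk3 had 56.5, 34.1 and 52 CPM in vehicle mice and 60.8, 64.5 and 62.4 CPM in β-NMN mice, with vehicle mouse 2 lowest. The log2 fold change was 0.40 (SE 0.193, adjusted p = 0.447 by edgeR) and 0.20 without that mouse. Mapkapk2 had 370.7, 259 and 416 CPM in vehicle mice and 467, 487 and 411 CPM in β-NMN mice (log2 fold change 0.38, SE 0.206, adjusted p = 0.458; 0.20 without that mouse), and the groups overlapped. Dusp4, at 3.03 to 4.48 CPM with vehicle and 4.51 to 5.25 CPM with β-NMN, had a log2 fold change of 0.36 (SE 0.212, adjusted p = 0.48; 0.46 without that mouse). Mapk8, Mapk14 and Dusp16 had log2 fold changes of -0.01, -0.04 and -0.05, with SE from 0.113 to 0.144, and Dusp6 of -0.38 (SE 0.242). Without vehicle mouse 2 these values were -0.0083 for Mapk8, 0.0175 for Mapk14, -0.10 for Dusp16 and -0.20 for Dusp6. By the exact two-sided permutation test, which is limited to a p of 0.1 or more with 3 mice a group, 4 of the 9 heart genes were at that limit. These were the 4 genes without overlap, for which the limit is reached whatever the size of the change. Of all genes tested in hearts, 23.1% were without overlap.

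In the lungs, 0 of the 9 genes were called by edgeR, as were 0 of the 17008 genes tested (0%). At an unadjusted p below 0.05 were 301 genes (1.77%) and 0 of the 9. DESeq2 called 9 genes (0.0536%) and limma-voom 7 (0.0412%), with 0 of the 9 genes in either. Only Dusp6 did not overlap between the treatments, beside 8.21% of all genes tested, and 3.75% that were lower. It had 91.3, 94.3 and 79.7 CPM in vehicle mice 1 to 3 and 68, 64 and 75.3 CPM in β-NMN mice 1 to 3. The log2 fold change was -0.36 (SE 0.204, adjusted p = 0.969), and -0.31 without vehicle mouse 2. In the same lungs the 8 macrophage markers were higher with β-NMN without overlap, at 1436 to 4371 CPM with vehicle and 5070 to 5534 CPM with β-NMN, and the 5 cardiomyocyte markers lower, at 252 to 415 CPM and 74.3 to 245 CPM. The part of these markers in the lung values was not tested.

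The lung of vehicle mouse 2 lay apart at most of these genes. It had 28.5 CPM of Mapk8 against 11.9 and 12.3 CPM in the other vehicle lungs, 44.8 CPM of Mapk14 against 98.2 and 103 CPM, and 96.4 CPM of Dusp16 against 49.9 and 55.6 CPM. Its Dusp4, at 2.74 CPM, was below the 13.1 and 12.6 CPM of the other vehicle lungs, from 19 reads, and its Map3k8, at 9.39 CPM, was below their 21.6 and 20.3 CPM. In that library the 8 macrophage markers summed to 1436 CPM, against 4022 and 4371 CPM in the other vehicle lungs, and the 3 alveolar type 1 markers to 9169 CPM, against 4836 and 5480 CPM. With all lungs, the log2 fold changes were -0.34 (SE 0.388) for Mapk8 and 0.26 (SE 0.37) for Mapk14. They were 0.13 (SE 0.389) for Map3k8 and 0.03 (SE 0.272) for Mapkapk2. Without that mouse, the log2 fold changes of Mapk8, Mapk14, Map3k8 and Mapkapk2 changed sign, to 0.18, -0.03, -0.15 and -0.14. Dusp16 went from -0.41 (SE 0.295) to -0.0591, Dusp4 from -0.0909 (SE 0.634) to -0.50, and Mapk3 from 0.12 (SE 0.236) to 0.21. None of the 9 was called without it, and Dusp2, at -0.45 with it, was at -0.67 without it (adjusted p = 0.991 by edgeR).

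The fold changes of the 3 sample types are set side by side in the plot of log2 fold changes. Hearts and lungs came from the same mice, whereas the peritoneal cells came from other mice under another model, with daily doses in place of a single dose. Their difference from the organs was not tested.

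**Figure D4:**
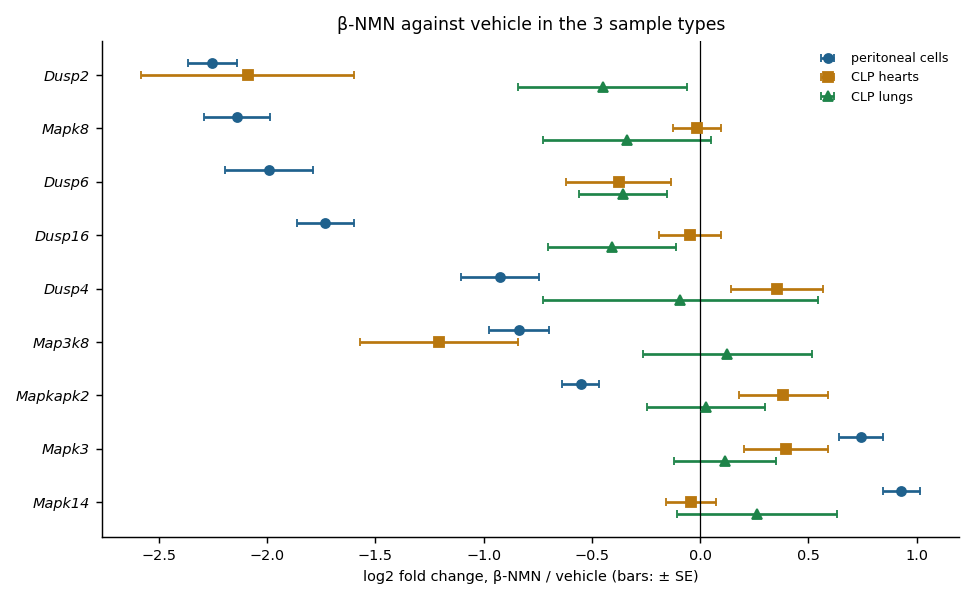
Log2 fold change (β-NMN over vehicle) of the 9 genes in peritoneal cells (circles), CLP hearts (squares) and CLP lungs (triangles), ordered by the value in peritoneal cells; bars are ± SE from edgeR (n = 6 against 6, 3 against 3 and 3 against 3). Dusp2 has values of -2.25, -2.09 and -0.45, and Mapk8 has -2.14, -0.01 and -0.34. Only the values of the peritoneal cells have an adjusted p below 0.05.

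Whether the response differed between hearts and lungs was tested as an interaction over the 12 CLP libraries. None of the 9 genes was called, as was none of 18318 genes (0%), with 797 at an unadjusted p below 0.05. Dusp2 and Map3k8 were among these, with the heart response lower than that of the lung by 1.63 (SE 0.656, adjusted p = 0.96) and by 1.32 (SE 0.587, adjusted p = 0.96) on the log2 scale. Since both organs came from the same mice, a fit with the mouse as a block was also made: neither gene was then below an unadjusted p of 0.05, and both had an adjusted p of 0.948, and without vehicle mouse 2 the differences were -0.86 and -0.51. The interaction called 0 of the 9 with DESeq2 as well.

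Levels of the 9 genes were also compared between the organs. Over both treatments, 6 of the 9 were called between hearts and lungs, beside 64.8% of all genes tested, 28.9% higher in hearts and 35.9% higher in lungs. Mapkapk2 was 3.58-fold higher in the hearts (adjusted p = 6.3e-06) and Mapk8 2.1-fold higher (adjusted p = 0.000477). In the lungs, Mapk3 was 3.13-fold higher (adjusted p = 2.04e-06), Dusp6 2.86-fold (adjusted p = 7.57e-06), Dusp16 1.53-fold (adjusted p = 0.0046) and Dusp2 1.83-fold (adjusted p = 0.0352). The fit with the mouse as a block is given beside this: 5 of the 9 were called, and Dusp2 was not (adjusted p = 0.0502). That fit called 11408 of the 18318 genes tested. Mapk14 (adjusted p = 0.0754), Map3k8 (0.491) and Dusp4 (0.333) were not called. Without vehicle mouse 2, 8 were called, with Mapk14 higher in hearts (log2 difference 0.40, adjusted p = 0.0156), Map3k8 higher in lungs (-0.53, adjusted p = 0.0147) and Dusp4 short of a call (adjusted p = 0.0504). The share of all genes called without that mouse was not counted.

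Per length, the order of the 9 genes in vehicle hearts began with Mapkapk2 (295 ± 6.9 TPM, SD, n = 3), Mapk3 (54.1 ± 5.27 TPM) and Mapk14 (49.4 ± 16.1 TPM), of which Mapk3 and Mapk14 overlapped. Dusp2 (4.18 ± 3.22 TPM) and Dusp4 (3.86 ± 1.5 TPM) were lowest and overlapped. Without vehicle mouse 2, Dusp2 was at 2.32 TPM, last and without overlap with Dusp4 at 3.02 TPM, Map3k8 was at 5.22 TPM in place of 9.36 TPM, and 5 of the 9 genes kept their place. In vehicle lungs, Mapk3 (218 ± 52.1 TPM) and Mapkapk2 (116 ± 57.1 TPM) led and overlapped, and Dusp6 came next at 53.4 ± 14.6 TPM. Mapk8 was lowest there at 2.61 ± 0.382 TPM, and 7 of the 9 kept their place without vehicle mouse 2. The p38 genes held 72.7% ± 0.773 of the JNK and p38 transcripts in vehicle hearts and 89.7% ± 2.55 in vehicle lungs, where Mapk13 alone held 37.2% ± 20.2. In vehicle peritoneal cells their share was 42.2% ± 1.73. Among the MAP kinase phosphatases, Dusp7 held 22.4% ± 6.1 in vehicle hearts and 24.4% ± 13.3 in vehicle lungs, and Dusp2 1.81% ± 0.697 and 1.39% ± 0.266. These levels come from separately scaled tables for peritoneal cells and organs, and the difference between them was not tested.

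The wider pathway had 0 called genes in the organs by edgeR, of 101 tested in hearts and 103 in lungs, with 16 and 2 at an unadjusted p below 0.05, beside 11.3% and 1.77% of all genes tested. In hearts, DESeq2 called 2 of them, Dusp2 and Spry4 (log2 fold change -0.93, adjusted p = 0.0329), a share near the 1.98% of all genes. Spry4 was named after its values were seen. In the phosphatase family in hearts, 2 genes were higher without overlap (Dusp4 and Dusp7) and 3 lower (Dusp1, Dusp2 and Dusp5) of 9 tested, with Dusp2 and Dusp4 already counted above, beside 23.1% of all genes without overlap and 11.5% lower in that way. None was called by edgeR. Dusp7 had 57 ± 9.16 CPM with vehicle and 73 ± 5.72 CPM with β-NMN (log2 fold change 0.36, adjusted p = 0.435), Dusp1 had 113 ± 33.1 and 77.5 ± 11.7 CPM (-0.54, adjusted p = 0.435), and Dusp5 had 18.2 ± 2.65 CPM with vehicle and 10.9 ± 2.06 CPM with β-NMN (log2 fold change -0.74, adjusted p = 0.435). Vehicle mouse 2 had the highest Dusp1 of the vehicle hearts, at 150 CPM against 102 and 86.1 CPM. It had the lowest Dusp7, at 46.4 CPM against 61.5 and 62.9 CPM. Fold changes of Dusp1, Dusp5 and Dusp7 without that mouse are not given. The median log2 fold change of the pathway was -0.03 in hearts and 0.00 in lungs.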

How the data were processed

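The authors sequenced poly(A)-selected RNA, aligned reads to mm10 with STAR (2.7.3a in the submitters' processing notes) and deposited unnormalized read counts per gene symbol from featureCounts 2.0.0. No source used here names the annotation or the strand setting, and reads of overlapping genes cannot be told apart. The labels give 2 β-NMN hearts the number 3, and the one from the mouse of lung 2 was taken as replicate 2. Source labels name thioglycollate for the CLP organs, whereas titles, tissues and methods give CLP.

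Each sample type was fitted alone with edgeR 4.0.16 (R 4.3.3), with filterByExpr defaults, TMM, estimateDisp and the older quasi-likelihood F-test. The organ comparisons used the 12 CLP libraries, with one mean per organ and treatment. CPM used TMM library sizes, and log2 CPM a prior count of 2. TPM used the summed exon length in GENCODE M21, for the 54000 symbols with a single locus. All 9 genes passed the filter on low counts in each sample type. Permutation tests were exact and two-sided (SciPy 1.17.1). Alternatives were DESeq2 1.42.0 and its size factors, limma-voom (limma 3.58.1) with quality weights, the newer quasi-likelihood form, no low-count filter, a replicate block, the longest transcript as length, and leaving out each library. The tests were checked on simulated counts.

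Nothing in the labels beyond the mouse numbers says how samples were batched, and p-values measure the spread between mice. The 9 genes, the lists and the rules for naming genes (all 9, fixed relatives, up to 3 called genes a list with the smallest p, and the 2 most alike genes) were chosen with earlier results of these data known. One gene that these rules name is not reported here. Protein sequences were not used here.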

Additional observations from a re-analysis of the deposited data

Results flagged for a closer look

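Of the 18 groups of 6 peritoneal mice examined (9 genes in each treatment), 3 had a mouse whose gap to its nearest neighbor was a large share of the group's range on the log2 CPM scale, above Dixon's critical value of 0.625. Chance alone flags about 5% of groups. For Dusp16 with vehicle, replicate 2 was highest, at 318 CPM against 200.3 to 235 CPM in the others, with a ratio of 0.653. For Dusp4 with β-NMN, replicate 5 was lowest, at 31.5 CPM against 44.4 to 53.5 CPM, with a ratio of 0.648. For Map3k8 with β-NMN, replicate 6 was highest, at 129 CPM against 70.5 to 82.6 CPM, with a ratio of 0.74. Leaving out each mouse in turn, the adjusted p by edgeR stayed at or below 1.51e-06 for Dusp16, 0.00251 for Dusp4 and 0.000717 for Map3k8.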

How the results depend on the processing

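In peritoneal cells, every alternative that kept all 12 libraries called all 9 genes, and 48 to 61 of the pathway genes against 55. Leaving out each library in turn also kept 9, with 51 to 56 pathway genes. Over all genes tested, the alternatives with all 12 libraries called 6775 to 8863, and leaving out each library called 7132 to 8049. Of the values for single genes, 1 lost its call, Dusp4 with libraries of over 80 M counts alone (log2 fold change -0.84). In hearts, DESeq2 called 1 of the 9 genes and 2 pathway genes, against 0 with edgeR, and the cause was not tested. The heart log2 fold changes of Mapk8 and Mapk14 changed sign with limma-voom, to 0.00605 and 0.00205, and so did those of Mapk8 and Mapkapk2 in lungs, to 0.163 and -0.000162. Leaving out each library gave ranges across 0 in hearts for Mapk8 (-0.0691 to 0.0181), Mapk14 (-0.10 to 0.0175) and Dusp16 (-0.10 to 0.0675), and in lungs for Dusp4 (-0.50 to 0.23), Mapk8 (-0.53 to 0.18), Mapk14 (-0.0297 to 0.47), Map3k8 (-0.15 to 0.34) and Mapkapk2 (-0.14 to 0.21). None of these values was called. Between organs, 5 to 8 of the 9 genes were called in level, and 0 in response, under every alternative. With the longest transcript as length, 3 of the 9 genes kept their place in the vehicle peritoneal order, and all 9 did in vehicle hearts and lungs; with β-NMN, 4 genes changed place in peritoneal cells, 3 in hearts and 2 in lungs. Without vehicle mouse 2, an alternative chosen after the data were seen, 5 of the 9 kept their place in vehicle hearts and 7 in vehicle lungs.

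The replicate numbers did not pair vehicle with β-NMN mice (r of the deviations from -0.169 to 0.132 in peritoneal cells, 0.073 to 0.241 in hearts and -0.518 to 0.304 in lungs). With the number as a replicate block, 9 genes, 51 pathway genes and 7010 genes in all were called in peritoneal cells, and 0 in hearts and lungs.

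The organs have 3 mice a group, and Dusp2 in hearts rests on 16 to 248 reads per library.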
